A study of Drosophila melanogaster with 2 samples.

Results

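The series profiled where the protein of CG15336, a Drosophila melanogaster gene named by its annotation number, sits on chromatin. Chromatin came from whole prepupae aged 2 days of a strain carrying a CG15336-eGFP fusion, and it was precipitated with an antibody against GFP. The 2 libraries are biological replicates of 1 group with a shared genotype and no treatment, so the values below describe peaks within this group and no test over samples could be made. Whole animals mix all tissues, the labels do not name the promoter that drives the fusion, and their possible control was not used here. Peaks whose summit, the point of highest signal, lay just downstream of a protein-coding start are described. A peak belonged to this set if its summit was within 500 bp of protein-coding transcript starts of genes on 1 strand only, and at or downstream of the nearest of them. The set held 772 of the 9295 peaks of the authors' conservative list on the chromosome arms (8.31%, Wilson 95% interval 7.76 to 8.88, counting error only). A further 1552 peaks lay upstream of such starts, 612 lay near starts of both strands, and 6359 lay over 500 bp from a coding start. Position chose the members, so their place between 0 and 500 bp is a description and not a finding.

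The first stretch of a gene holds the start site itself, the 5′ untranslated region (5′ UTR) and often the first splice site and the beginning of the first intron. RNA polymerase II commonly pauses just past the start in Drosophila, and GAGA factor, which binds GAGAG, is known to act at many paused promoters. First introns of Drosophila genes also hold enhancers and alternative promoters. A peak in this stretch can therefore belong to the promoter or to an element inside the gene, and position alone does not tell these apart.

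The same rule gave 385 of 6678 peaks in replicate 1 (5.77%) and 779 of 8213 in replicate 2 (9.48%), or 7.63% ± 2.63 (SD, n = 2). Members thus made up a larger share of replicate 2 than of replicate 1. The files give peaks and no read counts, so depth is unknown.

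The reference sequence at the summits of the highest members in introns was rich in A and T, except at Cat, the highest of them. It is shown to let these windows be read beside the GC values given further on. Windows run 5′ to 3′ along the gene's strand in the Release 6 (dm6) genome, and capitals mark the TATA box, the homeodomain site or a TG repeat of 8 bases, on either strand, with the letters spelled out beside the motif counts. They cover chrX:11818535-11818635 (plus strand) in rudhira, chr3L:3046384-3046484 (minus strand) in scramb2, chrX:4939927-4940027 (plus strand) in Ptp4E, chr3L:738815-738915 (minus strand) in hng3 and chr3L:18822873-18822973 (plus strand) in Cat.
rudhira: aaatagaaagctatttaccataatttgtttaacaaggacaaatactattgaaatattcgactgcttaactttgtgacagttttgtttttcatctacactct
scramb2: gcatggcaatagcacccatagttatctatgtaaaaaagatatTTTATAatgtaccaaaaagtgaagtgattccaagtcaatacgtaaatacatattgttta
Ptp4E: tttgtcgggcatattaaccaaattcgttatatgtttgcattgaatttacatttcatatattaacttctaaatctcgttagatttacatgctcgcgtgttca
hng3: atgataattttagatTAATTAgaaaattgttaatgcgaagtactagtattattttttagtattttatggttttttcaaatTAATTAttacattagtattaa
Cat: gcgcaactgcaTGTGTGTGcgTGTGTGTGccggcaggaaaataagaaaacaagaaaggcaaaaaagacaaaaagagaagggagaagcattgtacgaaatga

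The GC content of the 101 bp window was 15.8% at hng3, 27.7% at rudhira, 28.7% at scramb2, 30.7% at Ptp4E and 43.6% at Cat. Cat was the one of these 5 whose window was not below the mean of its flanks 300 bp away. Its window also carried a TG repeat in 2 blocks on the coding strand.

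Repeats near member summits are shown with the repeat itself in capitals, again along the gene's strand, because the strand on which such repeats lie was counted. The first 3 are among the longest GA or CT repeats, the next 3 the longest runs of A or T, and the last 3 are among the longest TG repeats, which were chosen after their values were seen. They lie at chr3R:5283017-5283045 (minus strand, mtd), chrX:18023902-18023930 (plus, CG6867), chr3R:19147638-19147666 (minus, Ppcs), chr2L:7189727-7189755 (minus, CG4496), chrX:3100036-3100064 (plus, kirre), chrX:263740-263768 (minus, CG13377), chrX:12654493-12654521 (plus, CkIalpha), chr2L:13550257-13550285 (plus, kuz) and chrX:13304052-13304080 (plus, IP3K2).
mtd: AGAGAGAGAGAGAGAGAGAGAGAGAGAGA
CG6867: gcagCTCTCTCTCTCTCTCTCTCTCccgc
Ppcs: ttcgttcgCTCTCTCTCTCTCcggttttt
CG4496: agcAAAAAAAAAAAAAAAAAAAAAAcaac
kirre: gcaacAAAAAAAAAAAAAAAAAAAtacgc
CG13377: atatacTTTTTTTTTTTTTTTTgtttcta
CkIalpha: caatgaGTGTGTGTGTGTGTGTaatatgc
kuz: tgcgttcGTGTGTGTGTGTGTGctaatgt
IP3K2: ttcgcgcGTGTGTGTGTGTGTGcgacgta

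The repeat was 31 bases long at mtd, longer than the stretch printed, and 21 bases at CG6867. The A run was 22 bases at CG4496 and 19 at kirre, and the T run at CG13377 was 16. The TG repeat was 16 bases at CkIalpha, which encodes a casein kinase, and 15 at kuz, which encodes the metalloprotease Kuzbanian of the Notch pathway. The conservative signals of these 7 peaks, in the authors' units on a scale that is not stated, were 135.0 at mtd, 121.8 at CG4496, 112.8 at CkIalpha, 89.6 at CG13377, 79.3 at kuz, 75.1 at CG6867 and 67.4 at kirre.

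Summits lay mostly close to the start, inside the 5′ UTR. The median member summit was 147.5 bp downstream of the start (quartiles 71 and 293), with 284 members under 100 bp, 259 from 100 to under 250 bp and 229 from 250 to 500 bp. The median was 211 bp in replicate 1 and 130 bp in replicate 2. The peak interval reached back over the start at 448 members (58.0%). Over transcripts of the start's gene, 522 summits (67.6%, Wilson interval 64.2 to 70.8) were in a 5′ UTR, 210 (27.2%, 24.2 to 30.4) in an intron and 38 (4.92%, 3.61 to 6.68) in coding sequence. The intron share was 41.04% in replicate 1's own members and 22.98% in replicate 2's. A single summit, at CG42867, was in a 3′ UTR and 1, at CG43815, lay outside the transcripts. Intronic summits were a median of 150 bp past the end of the first exon, and 74 of 210 were within 100 bp of it.

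**Figure D1:**
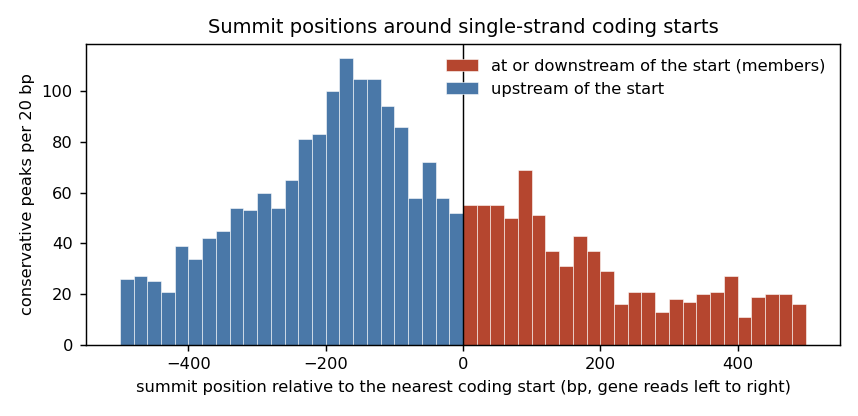
Number of conservative peaks (y axis, per 20 bp) by summit position relative to the nearest coding start (x axis, bp, read along the gene), with the 772 members in red and the 1552 peaks upstream of single-strand starts in blue. Members were most frequent in the first 120 bp, and the upstream peaks were most frequent from -180 to -160 bp.

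The annotation changed with distance. Under 100 bp, 93.7% of member summits were in a 5′ UTR and 4.23% in an intron. From 100 to under 250 bp the shares were 69.5% and 22.8%, and from 250 to 500 bp they were 33.2% and 60.7%. The members nearest the limit were at CG11151 (499 bp), CG9171 (498 bp) and Axud1 (496 bp), with signals of 211.2, 102.0 and 86.2. Just outside it, peaks lay 501 bp from a start of Tlk (signal 8.85) and 503 bp from starts of HDAC1 (102.8) and Gk2 (63.5). Summits exactly on the start included those at CG8306 and CG4928, with signals of 460.5 and 43.5.

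Member peaks were lower than the pooled upstream promoter peaks of the same list. Their median signal was 94.3 (quartiles 71.1 and 138.1), against 140.4 for upstream peaks and 123.1 for all arm peaks, a ratio of 0.671 to the upstream peaks. The ratio was 0.713 in replicate 1's own list and 0.741 in replicate 2's, so members were the lower in both. The difference was small within 50 bp of the start. Peaks from 50 bp upstream up to it had a median signal of 90.1, against 86.8 for members under 50 bp past it. Upstream peaks from -100 to -50 bp had 115.7, against 89.7 for members from 50 to under 100 bp. Of the members, 97 (12.6%) were in the highest signal quartile of the conservative list and 308 (39.9%) in the lowest, and 3 were among its 100 highest peaks. For upstream peaks the shares were 31.4% and 21.3%. Median interval width was 384 bp in both sets. Of the members, 173 (22.4%) had an interval overlapping that of another conservative peak, against 15.9% of upstream peaks and 14.2% of all. An overlapped peak of higher signal was present for 95 members (12.3%). Signal was below 20 at 43 members, and each of these overlapped a higher neighbour. Their matched peaks in the replicates' ranked lists had signals of 26.1 to 94.1 in replicate 1 and 31.8 to 126.2 in replicate 2, where 1 had none. A matched peak could also be the one matched to the neighbour. At Pdp1, overlapping members with signals of 4.37 and 40.1 shared 1 replicate 1 peak.

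Fewer members overlapped thresholded peaks of replicate 1 than of replicate 2. By at least 1 bp, 364 members (47.2%, Wilson interval 43.7 to 50.7) overlapped a thresholded peak of replicate 1, against 69.1% of upstream peaks and a background of 67.3% of all conservative peaks. For replicate 2 the counts were 543 members (70.3%, 67.0 to 73.5), 82.0% of upstream peaks and a background of 76.4%. Both replicates supported 320 members (41.5%, 38.03 to 44.96), against 62.8% of upstream peaks and 58.8% of all. Replicate 1 alone supported 44 members, replicate 2 alone 223, and neither 185. The conservative list was itself made from both replicates, so these shares are not independent of it. Members also had lower signal than upstream peaks, as given above, and the part of signal in the lower recovery was not separated beyond the quartiles that follow. In the highest signal quartile of the members, 93.3% overlapped a peak of replicate 1 and 100% one of replicate 2. In the lowest quartile 19.2% and 36.8% did.

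The share found in replicate 1 was larger farther from the start, and the share found in replicate 2 varied little with distance. Of members under 50 bp from the start, 36.1% overlapped a replicate 1 peak and 70.7% a replicate 2 peak. The replicate 1 share was 39.7% at 50 to under 100 bp, 41.2% at 100 to under 200 bp, 54.0% at 200 to under 300 bp, 60.2% at 300 to under 400 bp and 67.4% at 400 to 500 bp. The replicate 2 share stayed between 66.8% and 76.0% in these classes. The low replicate 1 share was not limited to members: peaks from 50 bp upstream up to the start had 30.6% in replicate 1 and 70.1% in replicate 2. Further upstream, from -500 to -250 bp, the shares were 78.6% and 80.7%. Intronic members overlapped a replicate 1 peak in 63.8% of cases and 5′ UTR members in 41.6%, while replicate 2 gave 70.5% and 71.1%. Median signal was 86.8 in the class nearest the start and 116.1 in the class farthest from it, so signal moved with distance too, and its part in the replicate 1 shares was not tested.

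**Figure D2:**
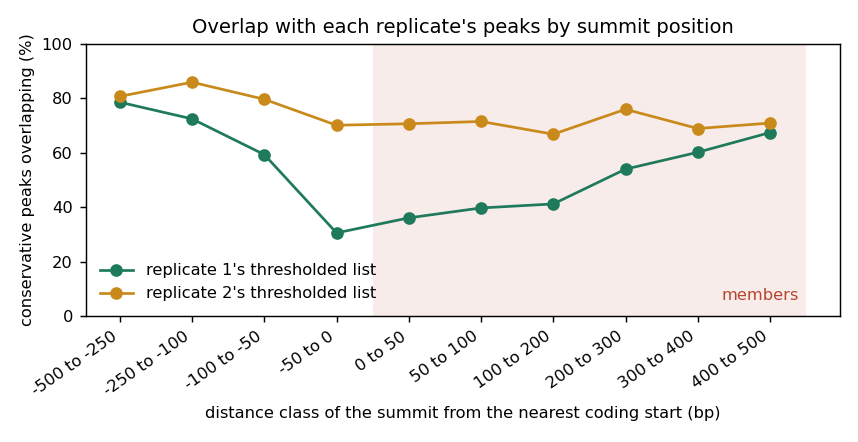
Share of conservative peaks overlapping a thresholded peak of replicate 1 (green) or replicate 2 (orange) by at least 1 bp (y axis, %), for classes of summit distance from the nearest single-strand coding start (x axis, bp). Members are the shaded classes. Replicate 1 reaches its lowest share, 30.6%, just upstream of the start and 67.4% at 400 to 500 bp, while replicate 2 stays between 66.8% and 86.0%.

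The matched replicate peak mostly put its summit on the same side of the start. For members in replicate 1's thresholded list, 334 of 364 matched summits (91.8%) were at or downstream of the same start, and in replicate 2's 488 of 543 (89.9%). Of the 320 members found in both, 286 (89.4%) were downstream in each. The side was less certain near the start. For members under 50 bp from it, 33 of 48 replicate 1 summits (68.8%) and 62 of 94 replicate 2 summits (66.0%) were downstream, while from 100 bp on the shares were 98.8% and 97.7%. The median shift between the conservative and the replicate summit was 23 bp in replicate 1 and 21 bp in replicate 2, against 16 bp in each for upstream peaks. The 2 replicate summits of a member found in both lay a median of 26 bp apart.

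The 20 members with the highest signal among those found in both replicates had signals of 488.9 to 2054, and 11 were in a 5′ UTR and 9 in an intron. The PNPase peak, at the gene of the RNA-degrading enzyme polynucleotide phosphorylase, had the highest signal of all members (2054). It ranked 6 in the conservative list, 5 in replicate 1's ranked list with a signal of 1029, and 11 in replicate 2's with 1042. Its summit was 73 bp past the start in the 5′ UTR (chr3R:31404487-31404832), and the matched replicate 1 summit was 78 bp past it. At ph-p, a Polycomb group gene of the PRC1 complex, the signal was 1235, with 654.2 in replicate 1 and 605.1 in replicate 2, and the summit was 449 bp past the start in a 5′ UTR (chrX:2137694-2138091). GstE13, a glutathione transferase gene, had 1132, with 498.4 in replicate 1 and 638.1 in replicate 2. These 3 were the members above 1000.

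SCOT, whose enzyme takes part in the use of ketone bodies, had a signal of 930.5 with 431.0 in replicate 1 and 501.5 in replicate 2, and its summit was 38 bp past the start. Cat, the catalase gene, had 906.9 with 378.5 in replicate 1 and 516.7 in replicate 2, 319 bp past the start in an intron. The summit windows of rudhira (867.9), scramb2 (822.0), the receptor tyrosine phosphatase gene Ptp4E (766.5) and hng3 (715.3) also lay in introns, 248 to 484 bp past the start. Their matched signals were between 366.8 and 427.7 in replicate 1 and between 350.2 and 438.5 in replicate 2. hdly (847.5) had its summit in a 5′ UTR, 57 bp past the start, and CG9399 (667.8) in an intron, 86 bp past it.

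The lower 8 of the 20 were CAH3, a carbonic anhydrase gene (587.0), lawc (582.4), CG12316 (567.5), the ecdysone-induced nuclear receptor gene Eip75B (564.6), CG18622 (544.7), Rsod (519.7), the ceramide kinase gene Cerk (519.3) and CG32772 (488.9). By difference in rank the replicates were farthest apart at Cerk, with 195.4 in replicate 1 (rank 838) and 324.2 in replicate 2 (rank 379). The difference in signal was larger at GstE13 and Cat. Eip75B was higher in the ranks of replicate 1 (305.4, rank 334) than of replicate 2 (253.4, rank 631). The median GC of the 20 windows was 32.2%, from 15.8% at hng3 to 61.4% at lawc, and 15 of the 20 were below the mean of their flanks. GAGAG was in 2 of the 20 windows.

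**Figure D3:**
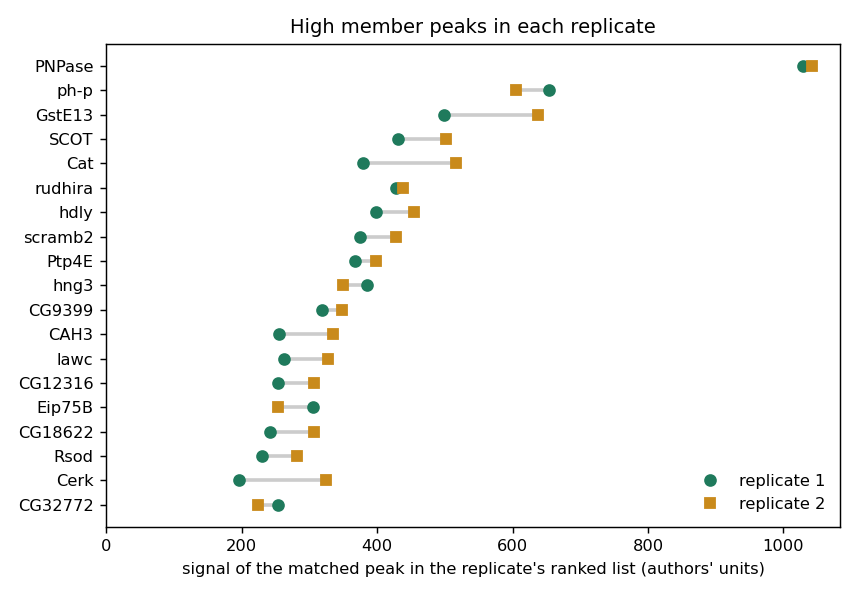
Signal of the matched peak in each replicate's ranked list (x axis, the authors' units) at 19 of the 20 highest members found in both replicates, in the order of their conservative signal from the top. Green circles are replicate 1 and orange squares replicate 2, and PNPase stands apart with 1029 and 1042.

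Over all members the replicates' signals followed each other less closely than at upstream peaks. Across the 761 members with a ranked peak in both, Spearman's rho was 0.601, against 0.806 over 1536 upstream peaks and 0.782 over 9212 peaks of all classes. These are correlations across peaks of the same 2 libraries and are given as descriptions. The members' range of signal was narrower than that of upstream peaks (quartiles 71.1 and 138.1 against 89.9 and 248.6), which bears on a rank correlation.

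GC content at member summits was higher than over the pooled upstream peaks and over all peaks, and it varied with where in the gene the summit lay. The 101 bp window averaged 42.7% GC (SD 10.1 over members), against 35.6% at upstream peaks and 33.9% over all peaks, and the replicates' own members gave 39.6% and 43.6%. The upstream peaks within 50 bp of the start were not lower: they averaged 48.2%, against 46.4% at members under 50 bp past it. From -100 to -50 bp the mean was 42.2%, against 42.8% at members from 50 to under 100 bp. Windows of the same length centred 147 bp past all 19252 coding starts averaged 45.7%. Flanks of member windows centred 300 bp upstream averaged 38.4% and those downstream 45.2%. Against the mean of both flanks the member windows differed by 0.871 percentage points, with -3.71 in replicate 1 and 2.06 in replicate 2, and by -7.05 at upstream peaks and -10.4 over all peaks. The sign of the members' difference was thus not the same in the replicates, and it was -1.36 with flanks 200 bp away. In the finer profile, members were at 42.1% just past the summit, between 46.2% at 126 bp upstream and 45.7% at 126 bp downstream. Upstream peaks reached 34.5% and distal peaks 31.6%.

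Intronic and 5′ UTR members differed in this profile. Intronic members were at 36.3% GC at the summit, with 45.6% at 126 bp upstream and 42.4% at 126 bp downstream. The 5′ UTR members were at 43.8% at the summit, with 46.4% and 46.6% at these distances. Their GC difference from the flanks was -6.34 points for intronic, 3.14 for 5′ UTR and 10.3 for coding sequence members. Members of higher signal had lower GC. The mean was 37.6%, 43.0%, 44.4% and 45.7% over the signal quartiles from the highest to the lowest, and 40.9% of the highest quartile were intronic against 21.2% of the lowest. Members found in both replicates averaged 39.7%, and those supported by replicate 2 alone averaged 45.3%. GC, signal, annotation and replicate support moved together here, and their separate parts were not tested.

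**Figure D4:**
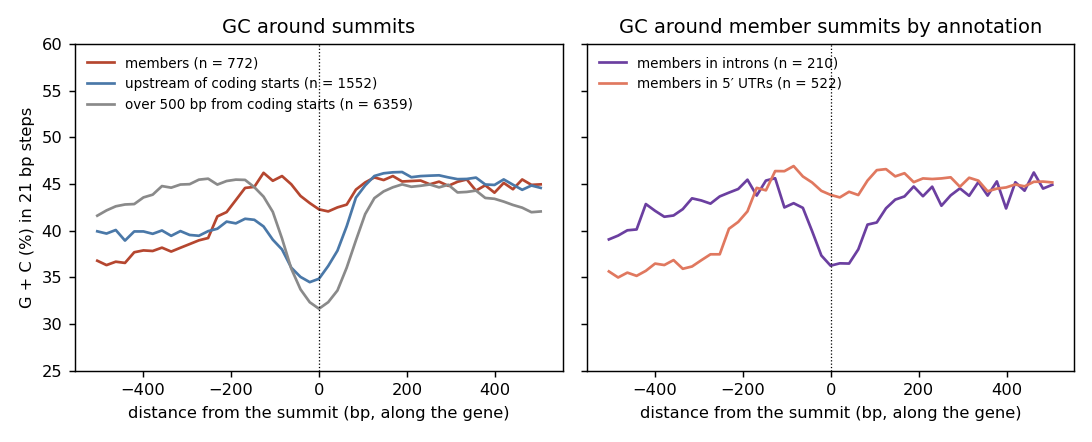
Mean G + C (y axis, % in 21 bp steps) around peak summits, read along the nearest gene (x axis, bp). The left panel has members (red), peaks upstream of coding starts (blue) and peaks over 500 bp from coding starts (grey), with 42.3%, 34.9% and 31.6% at the summit. The right panel splits members into those in introns (purple, 36.3% at the summit) and in 5′ UTRs (orange, 43.8%).

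Motifs were searched as exact letters on both strands of the 101 bp window, read along the gene. GAGAG was in 133 member windows (17.2%, Wilson interval 14.7 to 20.1), against 20.2% of upstream peaks, 12.5% of all peaks and 11.1% of the windows past all coding starts. The share was 19.2% in replicate 1's own members and 17.5% in replicate 2's. The ratio of the member share to the upstream share was 0.854 in the conservative list, 1.36 in replicate 1 and 0.679 in replicate 2, so its direction was not the same in the replicates. The member share did not go with signal, at 16.6% in the highest and 18.1% in the lowest quartile. It was 19.5% in 5′ UTR and 11.9% in intronic members. By replicate support it was 13.1% in members found in both replicates and 18.9% in those found in neither. It was 20.5% with replicate 1 alone and 21.1% with replicate 2 alone. The repeat GAGAGAGA, which contains GAGAG, was in 14 windows (1.81%), against 3.67% of upstream peaks and 0.509% of windows past all starts.

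A runs and TG repeats lay more often on the coding strand of members than on the other strand, as counts with no test. The run AAAAAAAA read on the coding strand in 71 members (9.20%) and on the other strand in 36 (4.66%). Upstream peaks had it in 83 (5.35%) and 96 (6.19%), and windows past all starts in 2.57% and 1.85%. Replicate 1's members gave 43 and 25, and replicate 2's gave 63 and 31. In the 5′ UTR members the counts were 53 and 20, and in intronic members 18 and 16. The letters AAAAAG, the reverse of the polypyrimidine initiator core CTTTTT, read on the coding strand in 141 members (18.3%) and CTTTTT in 57 (7.38%). Upstream peaks had 10.4% and 9.99%, and windows past all starts 8.32% and 4.09%, so the unequal strands were also present past starts in general. These motifs overlap where a run of A is followed by G.

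The repeat TGTGTGTG was on the coding strand of 39 members (5.05%) and its reverse CACACACA on that of 11 (1.42%), with no member holding both. Upstream peaks had 17 (1.10%) and 18 (1.16%), and windows past all starts 1.80% and 0.774%. The counts were 25 and 4 in replicate 1's members and 36 and 15 in replicate 2's. Among the intronic members 18 had TGTGTGTG and 0 of 210 had CACACACA, and the upper Wilson limit of a count of 0 there is 1.80%. On either strand the repeat was in 6.48% of members (4.95 to 8.44), against 2.26% of upstream peaks and 2.30% of all. The 39 carriers had a median signal of 88.4, and 18 overlapped a replicate 1 peak and 27 a replicate 2 peak. Cat, with 906.9, was the highest of them.

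**Figure D5:**
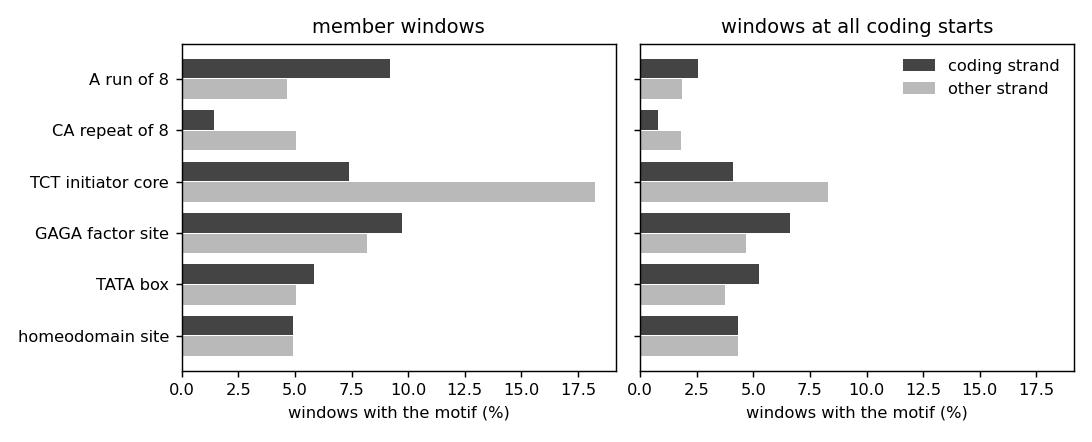
Share of 101 bp windows with each motif (x axis, %) on the coding strand (dark) or the other strand (light), for member windows (left) and for windows centred 147 bp past all coding starts (right). A runs have 9.20% on the coding strand of members and 4.66% on the other, and the CA repeat, whose other strand reads as a TG repeat, has 1.42% and 5.05%.

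The TATA box TATAAA was in 10.2% of member windows, against 20.6% of upstream peaks, 22.1% of all peaks and 8.01% of windows past starts. The homeodomain site TAATTA was in 4.92%, against 8.31%, 9.46% and 4.35%. The pause button core CGGACG was in 25 members (3.24%, 2.20 to 4.74), against 0.838% of upstream peaks, 0.764% of all peaks and 2.66% of windows past starts. It was in 3.90% of replicate 1's members and 4.49% of replicate 2's. The initiator core TCAGT was in 17.7%, against 18.2%, 16.8% and 16.7%. The DNA replication-related element TATCGATA was in 1 member. The splice donor letters GTAAGT read on the coding strand of 33 members (4.27%) and on the other strand of 5 (0.648%), and upstream peaks had 32 and 38. Windows past all starts had 4.74% and 1.26%, so these unequal strands were also present past starts in general. The other 6 of the 17 motifs searched were the BEAF-32 core CGATA (12.6% of members against 11.8% of upstream peaks), CAGTGC (6.87% against 5.35%), ACAGTG (5.83% against 5.73%), the Zelda site CAGGTA (1.68% against 2.00%), the E-box CACGTG (0.907% against 0.773%) and promoter motif 1, GGTCACAC (0.389% against 0.709%). Base composition also differs between the sets, as given above, and its part in these shares was not tested.

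The members lay at 696 genes, 4.99% of the 13945 protein-coding genes on the arms. Replicate 1's members lay at 361 genes and replicate 2's at 703, of which 252 were shared (69.8% of the replicate 1 genes and 35.8% of the replicate 2 genes). Conservative members made up 7.44% of peaks on 3L, 7.58% on 2L, 7.67% on 3R, 9.42% on X and 9.67% on 2R, with 1 of 12 peaks on chromosome 4. Their genes had more annotated starts than others. The median was 2 starts against 1 over all coding genes, and 36.2% had a single start against 73.5%. Of the 696 genes, 203 (29.2%) also had a peak upstream of a start, against 9.50% of all coding genes, and 285 (40.9%) also had an intronic peak over 500 bp from starts, against 10.6%. Genes with more starts offer more positions for a member itself and for either of these other peaks. The part of this in the number of starts and in the shares was not tested.

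Of the 696 genes, 72 had 2 or more members, and 4 had 3. Of the 68 genes with 2, 35 had them at distinct starts, so several members of a gene were not always separate sites. At Eip75B the 3 members stood at 3 different starts, with signals of 564.6, 159.2 and 143.8. The first overlapped peaks of both replicates, as did the third, and the second overlapped replicate 2's list only. At InR, the insulin receptor gene, the signals were 78.7, 68.3 and 58.9, the last 2 at the same start, and none was in both lists. Pdp1, a clock transcription factor gene, had 40.1, 30.1 and 4.37, of which 1 was in both lists. Its members of 40.1 and 4.37 overlapped, shared a start and were matched to the same replicate 1 peak. At l(2)k09913 the signals were 151.5, 27.7 and 4.95, and the first 2 were in replicate 2's list. Those 2 overlapped each other and were matched to the same ranked peak in each replicate.

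Genes were counted in 20 function lists, written with earlier results of these data known, beside the 4.99% of all coding genes. The median number of annotated starts was 2.5 in the clock and ecdysone lists and 2 in the cytoskeleton list. It was also 2 in the EGF receptor, developmental regulator and translation factor lists, and 1.5 in the list of insulator, architectural and GAGA-type factors. In the Notch and cytosolic ribosomal protein lists and over all coding genes it was 1. Genes with more starts offer more positions for a member, and the part of this in the list shares was not tested. The highest shares were in the circadian clock list (5 of 16 genes, 31.3%) and in the cytoskeleton and cell adhesion list (11 of 38, 28.9%). Upstream peaks stood at 6 of the 16 (37.5%) and 12 of the 38 (31.6%), against 9.50% of all coding genes, so high shares were not particular to members. The order of the member shares did not hold in replicate 1's own members. These lay at 2 of 16 clock genes, 8 of 38 cytoskeleton genes and 9 of 26 genes of the ecdysone response list. The cytoskeleton members included sqh, which encodes the regulatory light chain of non-muscle myosin (signal 448.2), the septate junction scaffold gene dlg1 (250.8), the integrin gene if (169.3) and the ERM protein gene Moe (157.6), each found in both replicates. Of the 11, 6 were in replicate 1's list. By each replicate's own members the list had 8 genes in replicate 1 and 12 in replicate 2. The clock members stood at the kinase gene dco (204.0), cyc (117.7), tim (94.9), the kinase gene sgg (82.6) and Pdp1. The highest member at Pdp1 (40.1) overlapped a thresholded peak of neither replicate. By each replicate's own members the clock list had 2 genes in replicate 1 and 6 in replicate 2.

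The list of insulator, architectural and GAGA-type factors had members at 6 of 24 genes, and upstream peaks stood at 4 of the 24. The list was counted as written, and a place in it does not show that a gene acts at insulators or GAGA sites. Trl, which encodes GAGA factor itself, had a summit 130 bp past its start in the 5′ UTR with a signal of 454.9, with 223.5 in replicate 1 and 232.9 in replicate 2. psq, another factor that binds GAGAG, had 282.0, and BEAF-32 had 110.3, both in both replicates. MTF-1 (75.9), counted only because the list holds it, overlapped a thresholded peak of neither replicate. By each replicate's own members the list had 2 genes in replicate 1 and 4 in replicate 2. The ecdysone response list had 6 of 26, led by Eip75B (564.6), Eip63F-1 (201.6), Eip74EF (130.2) and tai (94.3), the last in replicate 2 only. It had 9 genes by replicate 1's own members and 5 by replicate 2's. Upstream peaks stood at 14 of the 26.

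Cytosolic ribosomal protein genes had members at 17 of 93 genes (18.3%), while 9 had an upstream peak. The highest were RpL30 (164.1, with 65.0 in replicate 1 and 105.5 in replicate 2), RpS4 (147.5), RpL22 (122.2) and RpS15 (109.1). Their summits were 20, 59, 15 and 135 bp past the start, in the 5′ UTR. Of the 17, 6 overlapped a replicate 1 peak and 11 a replicate 2 peak, and the replicates' own members gave 5 and 12 genes. The translation factor list had 4 of 24, at pAbp (129.0), eEF1alpha1 (100.5), eIF4G2 (88.3) and eIF4E1 (73.4), none in replicate 1's list. Upstream peaks stood at 5 of these 24 genes. Members of these lists were 15 to 207 bp past the start, where the replicate 1 shares of all members were 36.1% to 54.0%.

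The EGF receptor list had 5 of 21, with csw, a tyrosine phosphatase gene, at 310.7, aop at 105.8, Egfr at 99.7 and kek1 at 93.5. The Notch list had 4 of 23, at mam (106.9), kuz (79.3), N (77.4) and mib1 (68.4), of which mam alone was in replicate 1's list. The Hippo and growth list had 4 of 28, at Mer (376.8), mats (238.7), dco (204.0) and InR (78.7). The Hedgehog, Wnt and BMP list had 4 of 29, at Apc (147.0), shn (114.8), sog (105.1) and sgg (82.6). Developmental regulators had 7 of 50, led by hb (376.1), ken (234.9), ttk (94.7) and ab (82.9). Polycomb, Trithorax and remodelling genes had 4 of 44, at ph-p (1235), jing (422.3), Su(z)2 (135.3) and e(y)3 (94.7). Upstream peaks stood at 7 of 21 EGF receptor, 8 of 23 Notch, 9 of 28 Hippo and growth, and 8 of 29 Hedgehog, Wnt and BMP genes. They also stood at 11 of 50 developmental regulators and 7 of 44 Polycomb, Trithorax and remodelling genes.

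In the remaining lists 2 or fewer genes had a member, and the shares are read beside the 4.99% of all coding genes. Glycolysis had 1 of 13 (7.69%), Hex-A (211.6), and 8 genes with an upstream peak. Heat shock and chaperone genes had 1 of 18 (5.56%), Gp93 (80.3), and 9 upstream. Muscle genes had 1 of 26 (3.85%), Mhcl (83.3), and 9 upstream. Neuronal genes had 2 of 37 (5.41%), dnc (152.1) and Dscam1 (81.9), and 5 upstream. Autophagy genes had 2 of 21 (9.52%), Atg13 (203.7) and Atg4a (98.3), and 2 upstream. No member lay at 179 chemoreceptor, 121 cuticle protein or 73 mitochondrial ribosomal protein genes. The upper Wilson limits of these counts of 0 are 2.10%, 3.08% and 4.9992%. The limit for mitochondrial ribosomal protein genes is thus not below the 4.99% of all coding genes. Over all lists 81 of 898 genes had a member (9.02%), with 50 by replicate 1's own members and 85 by replicate 2's.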

How the data were processed

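The authors deposited lists for either replicate alone and for the pair, in dm6 coordinates, per the labels. What aligned the reads and called the peaks is not given in the sources used here. The deposited signal of a peak is the authors' value on an unstated scale, and levels were compared within a list only. Replicate signals are those of the overlapping peak with the nearest summit in each replicate's ranked list. The ranked lists of the pair hold a further 8 unnamed columns each, left out. Summits were placed on the Ensembl release 115 annotation, with introns and untranslated regions taken over all transcripts of the start's gene in the order 5′ UTR, coding sequence, 3′ UTR, intron. Sequence was read from RefSeq Release 6. Chromatin had been sheared to 200 to 800 bp, per the labels.

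Members, lists and motifs were chosen with earlier results of these data known. Of the list names, 18 were matched by synonym and 13 not. Named, apart from some items that are not reported here, are the 20 highest members found in both replicates, up to 4 genes per list, genes with several members, members at the limits, and the longest repeats. Sequence is printed for some of these. Shares carry Wilson 95% intervals. The code, tested on simulated data, ran on Python 3.11.15 (pandas 2.3.3, numpy 2.4.6, matplotlib 3.10.9, scipy 1.17.1). Alternatives were other lists, each replicate alone, other windows and other flanks.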

Additional observations from a re-analysis of the deposited data

How the results depend on the processing

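No paired analysis was possible because the series has 1 group. The member share ran from 5.77% to 9.48% under the alternatives tried, against 8.31%, and the ends of this range were the 2 replicates alone. Leaving out a replicate gave median distances of 130 to 211 bp, intron shares of 22.98% to 41.04%, 5′ UTR shares of 56.4% to 72.0%, signal ratios to upstream peaks of 0.713 to 0.741, GAGAG shares of 17.5% to 19.2%, ratios of these to upstream peaks of 0.679 to 1.36, and 50 to 85 list genes. The GC difference from the flanks turned direction: it was -3.71 to 2.06 with 1 replicate left out, -3.10 over peaks in each replicate's list and -1.36 with flanks 200 bp away, against 0.871. A 250 bp window gave an intron share of 13.1%, a 5′ UTR share of 81.4% and a share found in both replicates of 36.1%. That share was also 36.1% with an overlap of at least 0.5 of the peak, and 33.4% in the less strict list. The signal ratio was 0.732, and the GAGAG share 13.1%, over peaks in each replicate's list, and the less strict list had a signal ratio of 0.698. With windows of 100 bp on either side the GAGAG share was 33.0%. The ratio of GAGAG shares was 0.854, and 1.36 without replicate 2, so its direction differed between the replicates. The causes were not tested. With 2 replicates and no depth, spread between animals is poorly known.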
